A study of Mus musculus with 6 samples.

Results

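The transcription factor genes that hold mouse embryonic stem cells (ESCs) in the pluripotent state were examined together with the genes annotated on the strand opposite some of them. The 10 genes are 7 factors, Pou5f1, Nanog, Sox2, Esrrb, Zfp42, Sall4 and Tbx3, and 3 non-coding neighbours, Gm19553 opposite Pou5f1, Gm14261 opposite Sall4 and Tbx3os1 opposite Tbx3. They were picked by name out of 57010 genes in the deposited table, with their raw counts in the ESC and neuron libraries in view. The difference between ESCs and neurons in these 10 genes is therefore given as a description and was not tested. The samples were 3 libraries from a wild-type ESC line (cell line label WT ESC) grown under standard conditions, and 3 libraries from wild-type primary cortical neurons. The neurons came from cortices of mouse embryos at day 16.5 and were kept for 7 days in vitro. The sample titles name no perturbation for either group, and the study used both as reference states, one pluripotent and one neuronal. The strain and the origin of the ESC line are not given in the sources used here, and the library names of neuron replicates 2 and 3 hold the word "empty", which the labels do not explain. The batch label is ESC in one group and DIV7 in the other, so batch and cell type cannot be told apart. Nothing in the labels says that replicates came from separate cultures or animals, so p-values measure only the spread between these libraries, which may be technical.

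POU5F1 (also called OCT4) and SOX2 bind DNA side by side at a joint motif and, with NANOG, activate each other's genes and many others in the inner cell mass of the embryo and in ESCs. ESRRB, ZFP42, SALL4 and TBX3 belong to the wider network around them, and most of this network is shut down as cells differentiate. SOX2 is also used by neural progenitors. Antisense genes are transcribed from the strand opposite another gene, and where exons of both cover the same bases their transcripts are complementary.

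Libraries were shallow, with totals of 1368303 to 1775055 counts in ESCs and 513425 to 624792 counts in neurons. A count of 3 was worth 2.26 to 2.90 CPM (counts scaled to a common library total with edgeR's TMM factors) in ESC libraries and 3.92 to 4.81 CPM in neuron libraries. ESC replicate 2 stood apart: a chi-square of counts per degree of freedom was 3.96 against replicate 1 and 4.16 against replicate 3, while replicates 1 and 3 gave 1.31. A list of 8 ESC markers, 5 of which are among the 10 genes, summed to 147 to 217 CPM in ESCs and 1.31 to 4.81 CPM in neurons, and 7 of the 8 were at 0 in all neuron libraries. A list of 9 neuron markers did not separate the groups, with 52.2 to 58.7 CPM in ESCs and 44.9 to 61.3 CPM in neurons. Most of the ESC value came from Slc17a7, a vesicular glutamate transporter, with 64, 49 and 54 counts in ESCs and 2, 1 and 0 in neurons. Tubb3 had 10, 4 and 8 counts in ESCs and 4, 2 and 1 in neurons. In contrast, Map2, a dendritic microtubule protein, had 0, 0 and 1 in ESCs and 10, 13 and 13 in neurons. Markers of astrocytes or radial glia summed to 21.7 to 28.6 CPM in ESCs and 89.4 to 114 CPM in neurons. The neuron value was led by Pax6, with 8, 8 and 4 counts in ESCs and 61, 41 and 64 in neurons. Vim, on the same list, went the other way, with 23, 13 and 17 counts in ESCs and 0 in each neuron library. Oligodendrocyte markers gave 24.1 to 29.9 CPM and 35.8 to 56.1 CPM, and microglia markers 201 to 266 CPM and 130 to 145 CPM, the latter mostly Csf1r. Of the oligodendrocyte markers, Olig1 had 1, 1 and 2 counts in ESCs and 13, 12 and 8 in neurons, whereas Mbp had 29, 18 and 28 in ESCs and 1, 2 and 2 in neurons. Markers of fibroblasts or feeder cells stayed at or below 0.967 CPM in ESCs and 4.81 CPM in neurons, and 5 endoderm markers were at 0 in every ESC library. All these values are counts that the table assigns to a gene's strand, and whether reads were assigned to the strand they came from was not tested. Nothing on cell content is therefore read from these sums. The part of other cell types in the results was not tested, and in bulk RNA fewer cells of a type and less RNA per cell cannot be told apart.

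Pou5f1 encodes the POU-domain factor without which pluripotent cells do not form. It was counted 51, 29 and 43 times in ESC replicates 1 to 3 and 0 times in each neuron library. All 3 ESC libraries were above all neuron libraries, at 35.1 ± 6.12 CPM (SD, n = 3), and the neuron level was at least 7.98-fold lower, taking 3 counts per library as the limit that a count of 0 allows. Gm19553, annotated as an antisense gene, was counted 18559, 13967 and 15649 times in ESCs and 0 times in each neuron library. Its ESC level was 13880 ± 333 CPM (SD, n = 3) and its neuron level at least 3156-fold lower. It took 1.04% of all ESC counts and ranked 5th of all genes in ESCs by CPM per kilobase of exon, where Pou5f1 ranked 2930th, as the table assigns the reads.

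Both genes lie in the same few kilobases of chromosome 17. In the deposited table, whose build is not named but for which the submitters' processing notes list GRCm39, Pou5f1 covers chr17:35816915-35821669 on the plus strand with 2248 exonic bases. Gm19553 covers chr17:35819974-35821448 on the minus strand with 494 exonic bases, so that it lies wholly inside the span of Pou5f1. The pair share 317 exonic bases, which is 14.1% of the exonic bases of Pou5f1 and 64.2% of those of Gm19553, and the remaining 177 exonic bases of Gm19553 face none of Pou5f1's exons. In the GENCODE M21 transcripts, 291 bases of Gm19553-201 are the exact complement of Pou5f1-201, and all 291 face its coding sequence, stop codon included. The stretches are printed because they are where reads of the pair carry the same bases. The first is exon 1 of Gm19553-201 in full, 170 bases at chr17:35510382-35510551 on the minus strand (GRCm38), facing the last coding exon of Pou5f1, with capitals on the 3 bases opposite the stop codon. The second is 121 bases at chr17:35509103-35509223 on the minus strand (GRCm38), with no capitals, facing an internal coding exon.
Gm19553-201 opposite the last coding exon of Pou5f1: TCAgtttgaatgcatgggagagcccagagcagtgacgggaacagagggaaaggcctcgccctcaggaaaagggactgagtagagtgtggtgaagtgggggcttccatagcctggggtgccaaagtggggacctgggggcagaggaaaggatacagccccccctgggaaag
Gm19553-201 opposite an internal coding exon of Pou5f1: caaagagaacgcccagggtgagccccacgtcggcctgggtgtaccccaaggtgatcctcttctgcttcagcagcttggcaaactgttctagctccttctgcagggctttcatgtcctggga
The strand setting of the authors' counting is not given in the sources used here. The deposited table gave Pou5f1 and Gm19553 very unlike counts, but whether it assigned reads to the strand they came from was not tested. Which of both genes the reads came from therefore cannot be told, and the counts of either gene cannot be assigned to a strand.

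Sall4 encodes a zinc-finger factor that binds beside POU5F1 and keeps its gene active. It had 7, 14 and 9 counts in ESCs and 0, 2 and 0 in neurons, at 8.99 ± 4.20 CPM and 0.993 ± 1.72 CPM (SD, n = 3 each). The groups did not overlap, and with only 2 neuron counts the ratio of ESCs to neurons was 8.92 with a 95% counting interval of 2.26 to 77.0. Gm14261, annotated as a processed transcript, had 465, 573 and 316 counts in ESCs and 0 in each neuron library, or 397 ± 140 CPM (SD, n = 3) in ESCs and a level at least 90.2-fold lower in neurons. Sall4 lies at chr2:168590252-168609863 on the minus strand and Gm14261 at chr2:168608059-168610032 on the plus strand, positions as in the deposited table. Their 5′ ends overlap: Gm14261 starts 1804 bases inside Sall4, and 526 exonic bases are shared, 9.50% of those of Sall4 and 36.6% of those of Gm14261. Of 290 complementary bases between Sall4-201 and Gm14261-201 in GENCODE M21, 118 face the coding sequence and 172 lie outside it. The coding part is printed since it carries the start codon of Sall4: it lies at chr2:168766912-168767029 on the plus strand (GRCm38), and capitals mark the bases opposite that codon.
Gm14261-201 opposite the start of the Sall4 coding sequence: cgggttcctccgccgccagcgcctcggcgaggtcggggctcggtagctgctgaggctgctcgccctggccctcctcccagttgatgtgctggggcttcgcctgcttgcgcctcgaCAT

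Tbx3 encodes a T-box factor that ESCs use in self-renewal. It had 15, 7 and 10 counts in ESCs and 0 in each neuron library, or 9.04 ± 2.26 CPM (SD, n = 3) in ESCs and a level at least 2.05-fold lower in neurons, the smallest of the limits for members at 0. Tbx3os1, its antisense gene, had 223, 201 and 155 counts in ESCs and 0 in each neuron library, or 168 ± 27.1 CPM (SD, n = 3) and at least 38.1-fold lower. Tbx3 lies at chr5:119808734-119822789 on the plus strand and Tbx3os1 at chr5:119708195-119809573 on the minus strand in the deposited table. The pair share 258 exonic bases, only 3.89% of the exonic bases of Tbx3 and 6.60% of those of Tbx3os1, so that 3653 exonic bases of Tbx3os1 face none of Tbx3's exons. In GENCODE M21 the 115 complementary bases between the Tbx3os1-201 transcript and that of Tbx3 all lie before the coding sequence of Tbx3. A further unnamed gene, ENSMUSG00000120646.1, shares 190 exonic bases with Tbx3 on the opposite strand and had 8, 9 and 4 counts in ESCs and 0 in neurons.

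**Figure D1:**
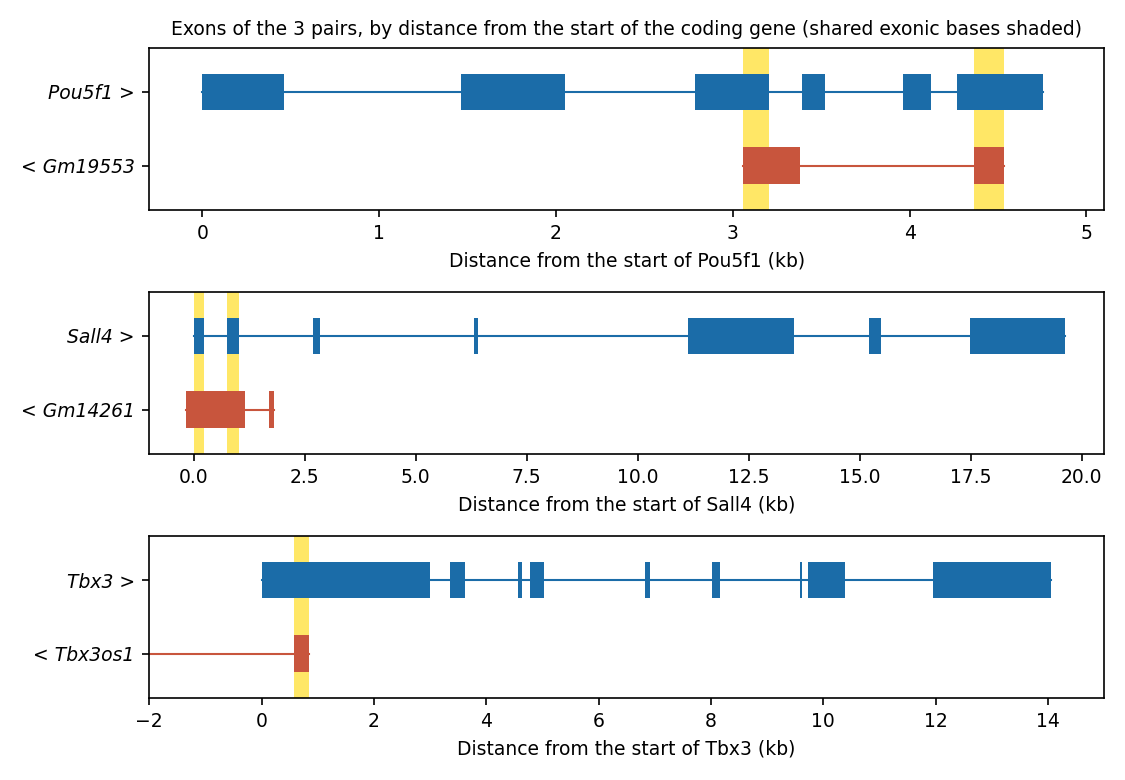
Exon blocks of the 3 opposite-strand pairs as the deposited table lists them, drawn in kilobases from the start of the coding gene, with shading where exons of both genes cover the same bases. Gm19553 sits inside Pou5f1 over 317 shared exonic bases, Gm14261 meets Sall4 at its 5′ end over 526 and Tbx3os1 meets Tbx3 over 258.

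In each pair the deposited table assigned nearly all ESC counts to the non-coding gene. Summed over both genes of a pair, Pou5f1 and Gm19553 had 18610, 13996 and 15692 counts in ESC replicates 1 to 3. Sall4 and Gm14261 had 472, 587 and 325, and Tbx3 and Tbx3os1 had 238, 208 and 165. These sums also rest on the strand assignment, since reads assigned to the strand opposite an unshared exon are in neither count. Gm19553 held 99.726%, 99.793% and 99.726% of the counts of its pair in ESC replicates 1 to 3 (99.7% ± 0.04, SD, n = 3). Gm14261 held 98.5%, 97.6% and 97.2% (97.8% ± 0.66, SD, n = 3), and Tbx3os1 held 93.7%, 96.6% and 93.9% (94.8% ± 1.63, SD, n = 3). The shares of the 3 pairs did not overlap, though the counting intervals of the Gm14261 and Tbx3os1 shares did. Per kilobase of exon they became 99.9446%, 99.4% and 96.8%. They describe the table's assignment only, and the shares with the strands exchanged cannot be worked out from these counts. Only 14.1%, 9.50% and 3.89% of the exonic bases of Pou5f1, Sall4 and Tbx3 are shared within the pair. Reads assigned to the other strand over the rest are in neither count of the pair. In neurons no pair had more than 2 counts in a library, so no share is given.

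The same predominance was present across the table. Exonic bases are shared on opposite strands, with at least 100 ESC counts together, in 1436 pairs of a protein-coding gene and a gene annotated with another type. Here the opposite gene held a median of 96.8% of the pair's ESC counts, with quartiles of 84.6% and 99.0%. It held over 90% in 70.3% of the pairs. Pou5f1 and Gm19553 had a higher share than 94.4% of these pairs, Sall4 and Gm14261 than 58.6% and Tbx3 and Tbx3os1 than 39.8%. This comparison was chosen after the values were seen. Whether the counting assigned reads to the strand they came from was not tested, and the library kit's treatment of strand is not given in the sources used here.

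**Figure D2:**
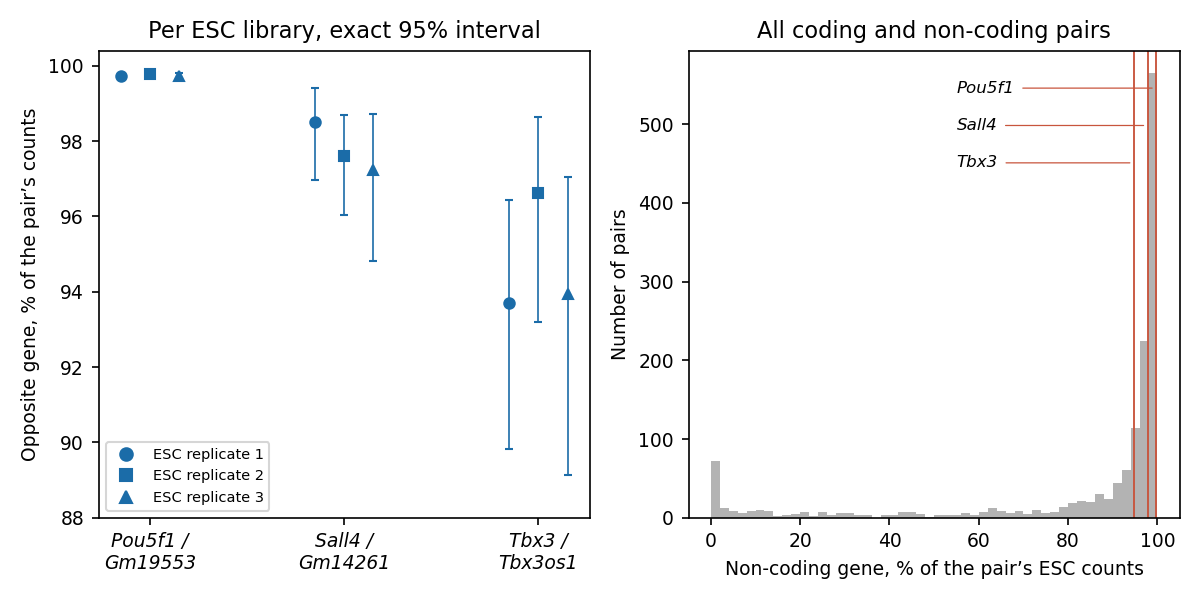
Left, the share of a pair's counts assigned to the opposite gene, in percent, in each ESC library, with exact 95% binomial intervals. Right, a histogram of the same share over the 3 ESC libraries for 1436 pairs, with lines at the 3 pairs. Gm19553 lies at 99.726% to 99.793%, and Gm14261 and Tbx3os1 lie nearer the median of all pairs, 96.8%.

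Nanog, Sox2, Esrrb and Zfp42 have no gene that shares exonic bases with them on the opposite strand. Sox2, the HMG-box partner of POU5F1, lies at chr3:34704554-34706610 on the plus strand and had 64, 33 and 50 counts in ESCs and 1, 1 and 3 in neurons. It was the only 1 of the 10 genes counted in every neuron library, at 41.8 ± 8.66 CPM in ESCs and 2.53 ± 1.97 CPM in neurons (SD, n = 3 each), a ratio of 17.5 with a 95% counting interval of 7.32 to 54.6. Sox2ot, a long non-coding gene on the same strand whose span contains Sox2, had 3 counts in each ESC library and 4 in each neuron library, or 2.62 ± 0.33 CPM and 5.86 ± 0.60 CPM (SD, n = 3 each) given the shallower neuron libraries. The ratio of neurons to ESCs was 2.24, with a 95% counting interval of 0.867 to 6.03. Nanog, a homeodomain factor that stabilises self-renewal, lies at chr6:122684448-122691592 on the plus strand and had 24, 11 and 19 counts in ESCs and 0 in neurons. That is 15.3 ± 4.06 CPM (SD, n = 3) in ESCs and at least 3.48-fold lower in neurons, and its pseudogenes Nanog-ps1 and Nanog-ps2 were at 0 in all libraries.

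Esrrb encodes an orphan nuclear receptor that can stand in for NANOG in parts of its role. It lies at chr12:86407891-86568402 on the plus strand and had 21, 22 and 26 counts in ESCs and 0 in neurons, or 20.2 ± 3.97 CPM (SD, n = 3) in ESCs and at least 4.59-fold lower in neurons. An unnamed gene within its introns on the opposite strand, ENSMUSG00000121169.1, had 2, 2 and 1 counts in ESCs. Zfp42, which encodes the zinc-finger protein REX1 and is widely used as a reporter of the naive state, lies at chr8:43748100-43760017 on the minus strand. It had 55, 26 and 58 counts in ESCs and 0 in neurons, or 39.7 ± 13.7 CPM (SD, n = 3) in ESCs and at least 9.02-fold lower in neurons, and its pseudogene copy Zfp42-ps1 had 6, 0 and 2 counts in ESCs. All 4 factors were counted in every ESC library, and only Sox2 was counted in neurons. Over 86 listed genes of the wider network without an opposite exon, the median count summed over the 3 ESC libraries was 14.5. Those genes include some at 0 in every ESC library, such as Sox1 and T, so nothing is read from that median. The counts of the 4 factors are those the table assigns to their strand, and how much of their RNA that assignment holds was not tested. Their low counts are therefore not read as low expression.

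An octamer core, the motif of POU factors, was found before the start of Nanog, Sox2 and Zfp42. It was not found before Pou5f1 or Esrrb, and Sall4 and Tbx3 could not be searched. RefSeq (GRCm38.p6) gave windows for 7 of the 10 genes, 10 windows in all; Gm19553, Sall4 and Tbx3 had none. The 250 bases before each gene start were searched on both strands for the octamer core ATGCAAA bound by POU factors, the SOX core CATTGT, their joint form, which is a SOX core, any base and then an octamer core, and the ESRRB core AAGGTCA. The octamer core was in 4 of the 10 windows, 2 of them the overlapping windows of Nanog, against 4.12% of 32851 windows of that length, the SOX core in 3, against 10.7%, and the ESRRB core in 0, against 4.08%. The joint form was in the 2 overlapping windows of Nanog, which were the only 2 of 32851 windows (0.00609%) to hold it. The SOX core outside Nanog was in 1 of the windows of Pou5f1. The other window of Pou5f1 and the windows of Esrrb, Gm14261 and Tbx3os1 held none of the motifs. The 3 windows with an octamer core are printed, 1 per gene, with the motifs in capitals: Nanog at chr6:122707239-122707488 on the plus strand, Sox2 at chr3:34649745-34649994 on the plus strand and Zfp42 at chr8:43307010-43307259 on the minus strand. Nanog and Zfp42 carry the octamer core as TTTGCAT, its reverse complement.
Nanog: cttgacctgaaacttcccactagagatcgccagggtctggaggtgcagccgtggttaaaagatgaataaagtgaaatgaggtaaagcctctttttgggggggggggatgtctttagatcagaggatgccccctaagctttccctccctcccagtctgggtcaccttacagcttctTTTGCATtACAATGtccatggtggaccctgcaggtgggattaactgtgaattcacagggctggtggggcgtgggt
Sox2: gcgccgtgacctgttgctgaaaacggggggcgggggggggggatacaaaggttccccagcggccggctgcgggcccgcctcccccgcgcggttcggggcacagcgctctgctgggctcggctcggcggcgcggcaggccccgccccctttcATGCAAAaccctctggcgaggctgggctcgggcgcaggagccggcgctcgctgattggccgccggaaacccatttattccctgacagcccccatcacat
Zfp42: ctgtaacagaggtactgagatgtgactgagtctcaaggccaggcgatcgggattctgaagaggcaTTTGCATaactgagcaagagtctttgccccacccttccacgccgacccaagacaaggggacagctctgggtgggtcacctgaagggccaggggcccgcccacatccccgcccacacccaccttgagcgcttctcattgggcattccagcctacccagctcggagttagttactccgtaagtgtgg
A match of letters is a description and does not show binding.

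**Figure D3:**
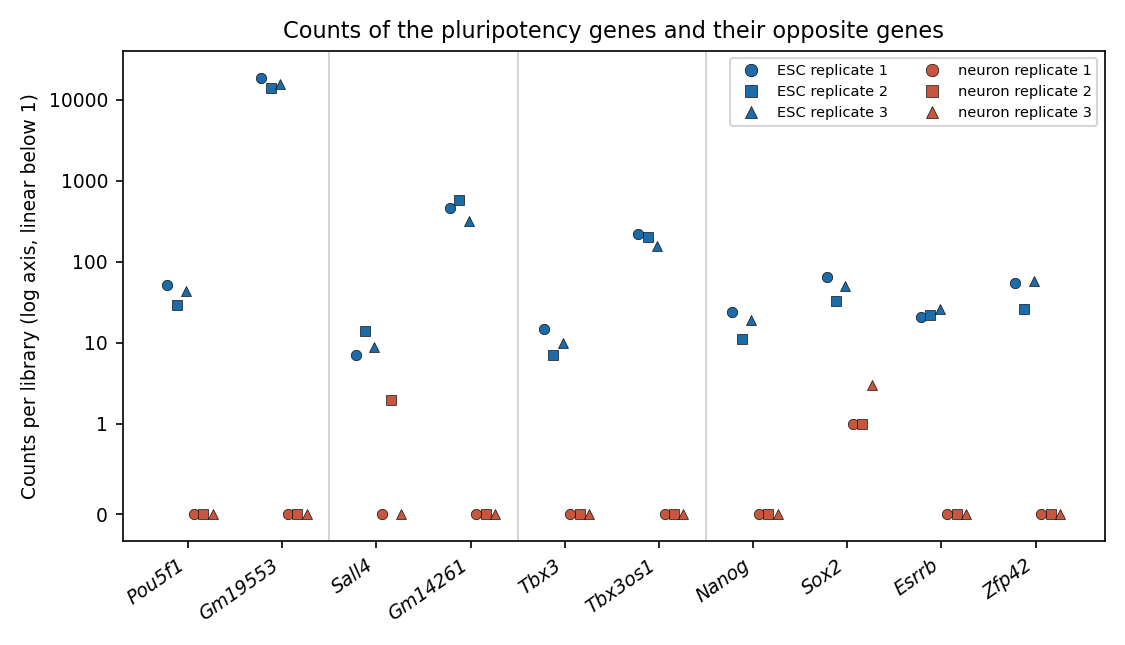
Raw counts of the 10 genes in each of the 6 libraries, on a log axis that is linear below 1, with 1 symbol per replicate. ESC points lie above neuron points for every gene, from Gm19553 with up to 18559 counts down to Sall4 with 7 to 14, and 8 genes are at 0 in all 3 neuron libraries.

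The 10 genes were ordered by their level in ESCs, as CPM per kilobase of exon and as the table assigns the reads. Gm19553 was highest at 28097, followed by Gm14261 at 276 and Tbx3os1 at 42.8 CPM per kilobase, and the 7 factors followed. The place of these 3 genes rests on the strand assignment: with the strands exchanged, those of their counts over shared exonic bases could fall to Pou5f1, Sall4 and Tbx3. Among the factors Zfp42 (21.1), Sox2 (20.3) and Pou5f1 (15.6) came first, then Nanog (6.82), Esrrb (3.34), Sall4 (1.62) and Tbx3 (1.36 CPM per kilobase). The ranges over the ESC libraries overlapped for the neighbours Zfp42 and Sox2, Sox2 and Pou5f1, and Sall4 and Tbx3, and for no other neighbours in this order.

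Across the 10 genes the difference of neurons minus ESCs in log2 CPM, with a prior count of 2, ran from -12.64 for Gm19553 to -1.88 for Sall4, with a median of -3.72. The median was -3.09 with the genes at 0 placed at their limit, and over all 7150 tested genes it was 0.35. The values followed each gene's ESC level, since for the 8 genes at 0 in neurons the prior count and the depth set the lower end. The filter on low counts removed Nanog, Sall4 and Tbx3, and the other 7 passed it only through their ESC counts. All 7 were lower in neurons at an adjusted p under 0.05 in edgeR's quasi-likelihood fit, where 38.6% of tested genes were; since these values chose the genes, nothing is read from that count.

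The 10 genes did not vary together among the ESC libraries. In TMM-scaled counts, the ratio of replicate 2 to replicates 1 and 3 was 1.73 for Gm14261, with a 95% counting interval of 1.55 to 1.93, and 1.25 (1.05 to 1.49) for Tbx3os1. It was 0.961 (0.942 to 0.980) for Gm19553. Of the factors, only Zfp42 had an interval without 1, at 0.542 (0.339 to 0.836), and Sall4, the partner of Gm14261, was at 2.06 (0.931 to 4.50). Pou5f1 was at 0.726 (0.462 to 1.11), so that within its pair the ratio of Gm19553 to Pou5f1 counts was 364, 482 and 364. Over 2525 genes with a mean of at least 50 ESC counts this ratio had quartiles of 0.875 and 1.15, and 3.80% of them were above 1.5. These intervals cover counting error only.

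**Figure D4:**
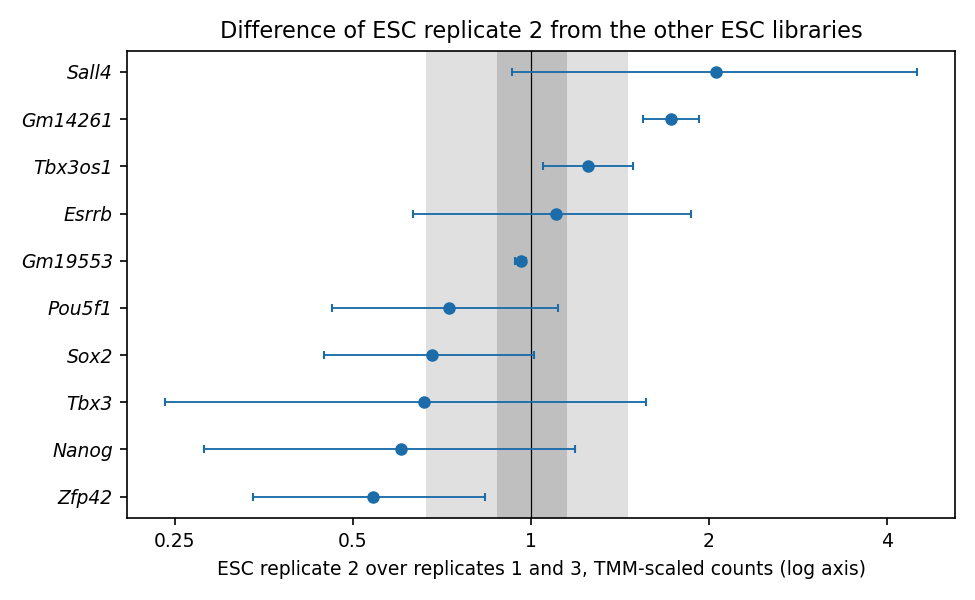
Ratio of TMM-scaled counts in ESC replicate 2 to those in replicates 1 and 3 for the 10 genes, on a log axis, with 95% counting intervals as bars. Dark and light shading mark the quartiles (0.875 to 1.15) and the 5th to 95th percentiles (0.664 to 1.46) of 2525 genes. Gm14261 at 1.73 and Tbx3os1 at 1.25 lie above 1, and Zfp42 at 0.542 lies below.

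The genes with the counts most like Gm19553 over the 6 libraries, by Euclidean distance in log2 CPM among 7150 tested genes, all have exons that another gene's exons face on the other strand. Of all 57010 genes 9557 do. How many genes counted as highly as these do was not worked out, so nothing is read from this. The nearest was Gm17232, an antisense gene opposite Tdh (distance 2.06), with 8071, 6439 and 6569 counts in ESCs and 0 in neurons. Next came ENSMUSG00000121043.1 opposite Lefty2 (3.91), then Dnah8 (5.23), Nphs1 (6.24) and Gm48840 (6.27). Nearest to Pou5f1 were Gm15459 (0.0626), A730036I17Rik (0.113) and ENSMUSG00000121450.1 (0.199), a pseudogene, a long non-coding gene and a gene with no type in GENCODE M21. Gm15459 had 50, 28 and 44 counts in ESCs and 0 in neurons, within 1 count of Pou5f1 in each library.

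The wider network was described from lists of further genes that exclude the 10. In the edgeR fit 85.6% of 7150 tested genes differed between the groups at an adjusted p under 0.05, 38.6% lower and 47.0% higher in neurons, and the median log2 fold change was 0.37. Genes near 0 in one group pass the filter only through the other group, so counts over tested genes do not stand for whole lists. For genes that passed only through the group where they are high, the adjusted p is given as a description. These include genes at 0 in every library of either group, and also Klf2, Klf5, Etv5, Myc and Cdh2. All values are counts that the table assigns to a gene's strand, and how much of its RNA they hold was not tested. Rises and falls below are changes in these assigned counts.

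Of 25 further transcription factors and chromatin proteins of the network, 9 were tested, of which 6 were lower in neurons, 2 higher and 1 not called, with a median log2 fold change of -1.05. Mybl2, a cell-cycle factor of the MYB family, fell from 36, 33 and 34 counts to 0 in each neuron library, at least 6.80-fold (adjusted p = 3.13e-10). Klf2, a Krüppel-like factor of the naive state, fell from 33, 30 and 28 counts to 1, 0 and 0 (ratio of ESCs to neurons 54.1, counting interval 9.47 to 2160, adjusted p = 3.05e-09), and its relative Klf5 from 22, 23 and 20 to 0, 1 and 0 (adjusted p = 1.23e-07). Myc, a growth factor-responsive regulator, went the other way, from 0, 2 and 0 counts in ESCs to 8, 11 and 9 in neurons, a ratio of 23.6 with a counting interval of 5.94 to 204 (adjusted p = 1.79e-07). Jarid2, a subunit of Polycomb repressive complex 2, rose by a log2 fold change of 1.95 ± 0.32 (SE, adjusted p = 6.80e-07). Nacc1, a BTB-domain repressor, was lower by a log2 fold change of -0.55 ± 0.26 (SE, adjusted p = 0.0456), which total-count scaling turned to 0.18 and not called; the call was also lost without ESC replicate 1, without neuron replicate 2 or 3, with a filter at a mean of 10 counts and in DESeq2. Tet1, a 5-methylcytosine dioxygenase, had 20, 12 and 14 counts in ESCs and 6, 14 and 7 in neurons, with a log2 fold change of -0.01 ± 0.39 (SE, adjusted p = 0.982). The count of called genes was 5 without ESC replicate 1. It was also 5 with total-count scaling, 3 lower and 2 higher, with a median of -0.32. The median was -4.39, -3.66 and -3.68 without neuron replicate 1, 2 or 3, when 13 genes were tested. With no filter 18 of the 25 were lower and 2 higher, where 19.6% and 21.2% of 28820 genes were (40.8% in either direction).

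Of 25 genes known as targets and markers of the network, 6 were tested, of which 5 fell and 1 rose, with a median log2 fold change of -3.83. Trap1a, an X-linked tumour rejection antigen gene, fell from 51, 23 and 44 counts to 0 in each neuron library, at least 7.61-fold (adjusted p = 2.50e-10), and Dppa5a, an RNA-binding protein of ESCs, from 28, 20 and 24 to 0, at least 4.71-fold (adjusted p = 1.10e-08). Alpl, the alkaline phosphatase stained to identify ESC colonies, fell from 27, 19 and 15 counts to 1, 1 and 0 (ratio of ESCs to neurons 18.1, counting interval 4.81 to 153). Spp1, which encodes osteopontin, had a ratio of 13.7 (4.49 to 67.9), and Tdh, the threonine dehydrogenase on which mouse ESCs depend, fell by 2.91 ± 0.47 (SE) on the log2 scale (adjusted p = 5.89e-07). Jam2, a junctional adhesion molecule, rose by 1.05 ± 0.42 (SE, adjusted p = 0.0191), a call lost without ESC replicate 2, without neuron replicate 3, with no filter and in DESeq2. In all, 15 of the 25 were at 0 in every neuron library. Of all 57010 genes, only 17027 to 18056 had a count in a given neuron library, and 10 of the 25 targets had under 10 counts in every library. Nothing is therefore read from the 15. The count of called genes was 2, 1 and 3 without ESC replicate 1, 2 or 3 and 12, 13 and 12 without neuron replicate 1, 2 or 3, as the filter then admitted 2 to 3 and 13 genes. The median was -6.37 without neuron replicate 2. With no filter 18 were lower and 1 higher of 25.

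Of 25 genes of self-renewal signalling, 4 were tested, 2 lower and 2 higher. Etv5, an ETS factor induced by fibroblast growth factor, fell from 49, 14 and 36 counts to 0, 0 and 1 (ratio 58.8, counting interval 10.3 to 2348, adjusted p = 2.74e-08). Ctnnb1, which encodes beta-catenin, was lower by a log2 fold change of -0.87 ± 0.37 (SE, adjusted p = 0.0277), a call lost without neuron replicate 2 or 3, with total counts, with a filter at a mean of 10 counts and in DESeq2. Gsk3b, the kinase that marks beta-catenin for degradation, rose by 3.28 ± 0.50 (SE, adjusted p = 2.04e-07), and Jak1, a kinase downstream of the leukaemia inhibitory factor receptor, by 2.98 ± 0.40 (SE, adjusted p = 1.90e-08). Without neuron replicate 1 the number called was 7, and with no filter 7 of 24 were lower and 5 higher.

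Of 14 genes of the formative and primed states that follow naive pluripotency, 3 were tested. Foxd3, a forkhead factor of pluripotent cells, fell from 333, 210 and 241 counts to 0 in each neuron library, at least 50.9-fold (adjusted p = 1.23e-20). Cdh2, which encodes N-cadherin, rose from 1, 1 and 0 counts to 21, 14 and 22 (ratio 47.9, counting interval 12.7 to 405, adjusted p = 2.07e-10), and Pou3f1 rose by 2.50 ± 0.46 (SE, adjusted p = 5.02e-06) on the log2 scale. The number called was 5 without any 1 of the neuron replicates.

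Of 24 relatives of the 7 factors in the same gene families 8 were tested, of which 5 rose, 1 fell and 2 were not called, with a median log2 fold change of 2.26. Pou3f4, a POU-domain factor of the developing brain, rose from 0 in every ESC library to 15, 7 and 13 counts, at least 6.46-fold (adjusted p = 1.86e-09). Sox11 and Sox4, SOX factors of young neurons, rose from 0, 1 and 0 to 16, 16 and 16 counts (ratio 80.7, counting interval 13.8 to 3255) and by 4.76 ± 0.40 (SE) on the log2 scale. Sall2 rose by 3.28 ± 0.50 (SE) and Sox12 by 1.25 ± 0.39 (SE), the latter call lost without ESC replicate 3. Sall1, a zinc-finger relative of Sall4 that is also on the list of network factors, was lower by -1.17 ± 0.40 (SE, adjusted p = 0.00710), a call lost with total counts and with a filter at a mean of 10 counts; it was not tested without an ESC library. Esrra and Yy1, relatives of Esrrb and Zfp42, were not called (adjusted p = 0.229 and 0.127), but both were called as higher with total counts and with a filter at a mean of 10 counts, with log2 fold changes of up to 1.02 and 1.19. The median of the list was 3.62, 3.81 and 4.24 without ESC replicate 1, 2 or 3 and 4.86 without neuron replicate 2, and 0.82 with the filter at a mean of 10 counts. With total counts 7 rose and 0 fell. With no filter 12 of 21 were higher and 1 lower.

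**Figure D5:**
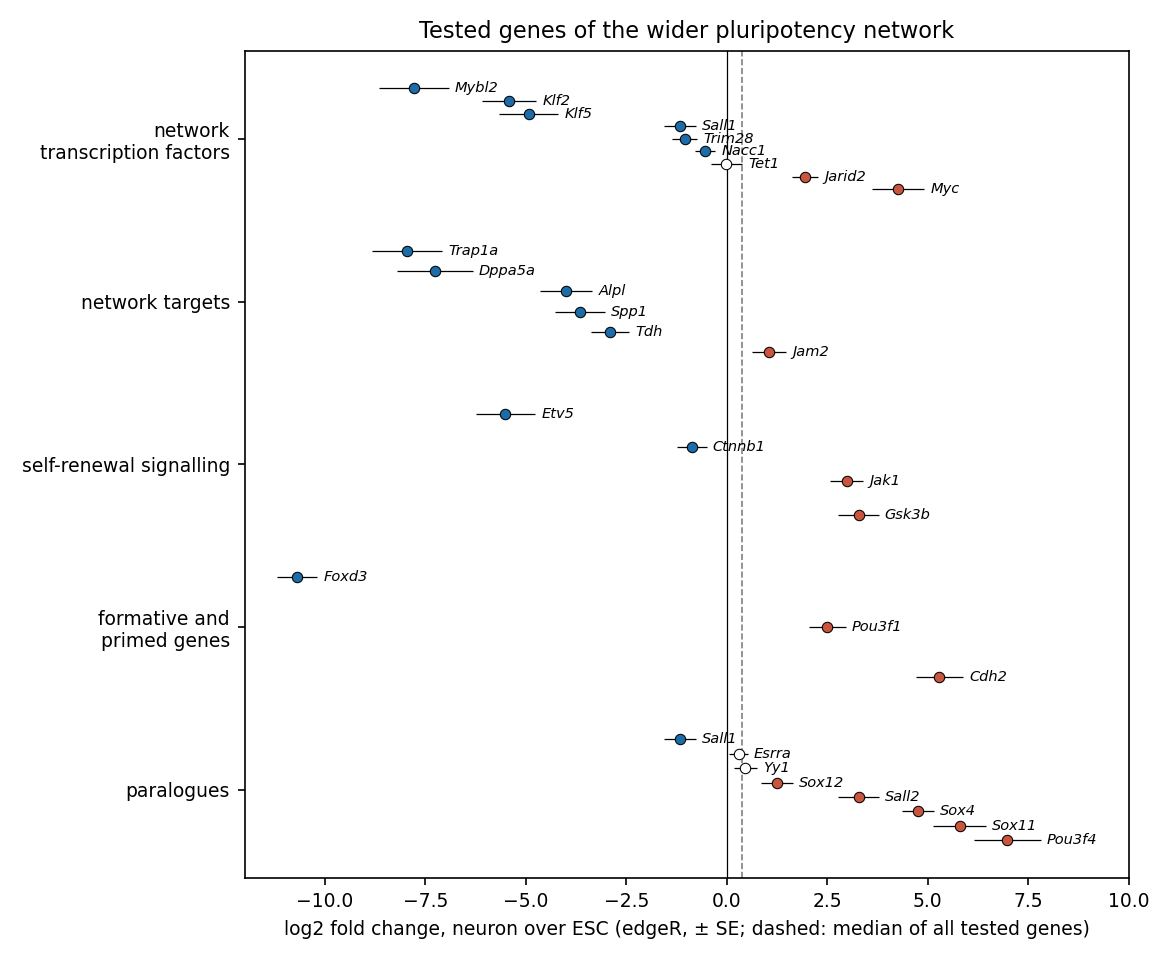
Log2 fold change of neurons against ESCs with its standard error from the edgeR fit for each tested gene of the 5 lists, with blue (lower) or red (higher) points for an adjusted p under 0.05 and open points otherwise. Targets lie mostly below 0, down to Trap1a at -7.97, and paralogues mostly above 0, up to Pou3f4 at 6.98.

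Opposite-strand partners were also present in the wider lists. Of 110 listed genes 24 have exons facing those of another gene, where 9557 of all 57010 genes do. Of the 24 partners 17 were tested. In neurons 11 were lower, 5 higher and 1 not called (median log2 fold change -0.96). With total counts 8 were lower and 6 higher, with a median of -0.23; Gm16159, opposite Fgfr1, then changed sign to 0.23 and lost its call, and Gm17110, opposite Bmpr1a, lost its call, both named after their values were seen. With a filter at a mean of 10 counts the median was -0.60. The most counted was Ulk4, a protein-coding gene that shares 759 exonic bases with Ctnnb1 and had 7539, 5838 and 6292 counts in ESCs and 2155, 1958 and 1881 in neurons, where Ctnnb1 had 29, 18 and 27 in ESCs. Gm17232 shares 66 exonic bases with Tdh and was at least 1383-fold lower in neurons. Gm10244, antisense to Mkrn1 over 365 exonic bases, fell by 2.79 ± 0.12 (SE) on the log2 scale, and Cd247, opposite Pou2f1 over 3007 exonic bases, by 1.69 ± 0.12 (SE). All 4 partners were called in the edgeR fit, with adjusted p from 3.41e-34 to 1.16e-12. Gm17232, at 0 in neurons, passed the filter only through its ESC counts, so its adjusted p is a description. Sox5os1, chosen after its values were seen, had no counts in ESCs and 92, 84 and 69 in neurons opposite Sox5, at least 45.2-fold higher. It passed the filter only through its neuron counts, so no p-value is given. Among the 86 listed genes without an opposite exon the highest count in an ESC library was 333, for Foxd3, and the next highest gene reached 51.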

How the data were processed

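RNA of 3 ESC and 3 neuron samples was enriched for polyadenylated molecules and sequenced as paired ends, per the labels' protocols. The authors deposited 1 table of raw counts per gene; per the file headers it also holds exon positions, strand and length, and its columns are named after STAR alignments. The submitters' processing notes list cutadapt, STAR, RSEM and the builds GRCm39 and mm39 without roles; the counting tool and its strand setting are not given in the sources used here. Groups and replicate numbers came from the sample titles.

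The deposited counts were analysed with edgeR 4.0.16 (R 4.3.3): filterByExpr with a minimum count of 10, TMM factors, glmQLFit and glmQLFTest on all 6 libraries, and Benjamini-Hochberg adjustment over 7150 genes, with a threshold of 0.05. CPM use TMM-scaled library sizes. Counting intervals are exact (Clopper-Pearson, 95%), and limits for a count of 0 take 3 counts per library; both cover counting error only. On simulated data 89% of 200 genes changed 4-fold were called among 7150. Exonic overlap was counted from the table's own positions. Symbols, gene types and transcript sequences came from GENCODE M21 (GRCm38) by identifier, with a symbol for 91.3% of genes; its coordinates were not mixed with those of the table. The 10 genes and all lists were chosen with earlier results of these data known. Named were the 10 genes, genes sharing exonic bases opposite them, per list up to 3 called genes with the lowest and 3 with the highest log2 fold change and 2 with the largest adjusted p, the 4 most counted partners, and the 5 and 3 genes nearest to Gm19553 and Pou5f1. Alternatives were total-count and RLE scaling, DESeq2 1.42.0, other filters and prior counts, a replicate block, counts per exonic kilobase, and leaving out each library.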

Additional observations from a re-analysis of the deposited data

How the results depend on the processing

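The direction of all 10 members was the same under every alternative run: of 100 values 73 stayed within the replicate spread, 27 moved and 0 reversed. No alternative could reverse the 8 members at 0 in every neuron library, and the members were chosen from this contrast. Nothing is therefore read from the 0 reversals. Their median difference of -3.72 became -5.63 with a prior count of 0.5 and -2.73 with 5, and ran from -3.93 to -3.62 without 1 library. With no filter 11762 of 28820 genes were called in place of 6119 of 7150. With no filter the numbers called were 20 network factors, 19 targets, 12 signalling genes, 7 formative genes and 13 paralogues, against 8, 6, 4, 3 and 6 with it. A filter at a mean of 10 counts gave 5 network factors of 8 tested, 2 signalling genes of 3, 1 formative gene of 1 and 7 targets of 7, and total-count scaling gave 5 network factors of 9; the cause was not tested. Without 1 library the counts ran from 5 to 12 for network factors, 1 to 13 for targets, 3 to 7 for signalling, 3 to 5 for formative genes and 5 to 9 for paralogues. Per exonic kilobase the opposite gene's share was 99.9446%, 99.4% and 96.8%. Total-count scaling moved the median of all genes by 0.73 on the log2 scale and the share of calls that were higher from 54.9% to 65.5%.

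The replicate numbers did not pair the samples: deviations of same-numbered libraries correlated at 0.0189, 0.0039 and -0.0223. With a replicate block 6088 genes were called, and the lists gave 8, 6, 4, 3 and 6 and the partners 16, the same numbers as without it.

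Depth limits these results: 8 members had no neuron count, so their folds are lower bounds, and Nanog, Sall4 and Tbx3 had under 25 counts in every library.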

Other observations

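Genes next to the members that share no exonic base with them were also counted, and are given as values without a test, chosen after they were seen. Tcf19, a cell-cycle gene 1962 bases from Pou5f1, had 37, 48 and 20 counts in ESCs and 0 in neurons. Slc2a3, a glucose transporter gene 13176 bases from Nanog, had 34, 16 and 32 counts in ESCs and 0, 2 and 0 in neurons. Atp9a, 5923 bases from Sall4, was higher in neurons, with 11, 8 and 10 counts against 2, 7 and 2 in ESCs. Gm42693, on the opposite strand 11198 bases from Sox2, had 15, 15 and 16 counts in neurons and 5, 0 and 1 in ESCs.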
